A study of Homo sapiens with 8 samples.

Results

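The genes described here are 10 regulators of cell cycle transcription: the activator E2F genes E2F1, E2F2 and E2F3, the atypical repressors E2F7 and E2F8, the retinoblastoma or pocket protein genes RB1, RBL1 and RBL2, and MYBL2 and FOXM1. They were taken by name, and each had 1 row in both deposited tables, among 42972 gene rows kept for the NOTCH1-labelled line and 42938 for MCF10A cells. RNA was sequenced from 8 samples of breast cells in culture. The 4 groups of 2 were the NOTCH1-labelled line with 30 µM ginkgolic acid for 3 days, the same cells with the solvent DMSO, and MCF10A cells with each of these. MCF10A is an immortalized, non-tumorigenic human breast epithelial line, and the labels describe the other cells as MCF10A that overexpress the intracellular, active part of the receptor NOTCH1, without giving the vector, its promoter or whether the line is 1 clone. Ginkgolic acid, a plant phenol, blocks the enzyme that activates SUMO for attachment to proteins. The series title gives the question, sensitivity of cells with active NOTCH1 to this block.

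The tables give 1 value per gene and group in FPKM, which is fragments scaled by transcript length and by mapped fragments. Replicate error, depth and p-values therefore could not be had, and "higher" and "lower" below describe values of groups, not tested differences. A size rule of at least 2-fold, a log2 ratio of ginkgolic acid over DMSO of at least 1 in either direction, takes the place of a test. In these bulk samples, fewer cells in a phase of the cycle and less RNA per cell cannot be told apart. Whether the 2 samples of a group were separate cultures is not stated. NOTCH1 itself had 12.4 FPKM under ginkgolic acid and 5.03 under DMSO in the NOTCH1-labelled line. In MCF10A cells it had 6.18 FPKM under ginkgolic acid and 11.4 under DMSO, so the DMSO values go against the label, and the line is called NOTCH1-labelled throughout. Epithelial markers were present, with a summed level of 364 to 891 FPKM over 6 genes, against 0.605 to 3.15 FPKM over 2 endothelial markers, 10.7 to 16.9 over 5 leukocyte markers and 23.1 to 73.1 over 6 fibroblast markers. The fibroblast sum was led by DCN, at 31.8 under ginkgolic acid and 63.4 FPKM under DMSO in the NOTCH1-labelled line. Its part in the results below was not tested.

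Through most of G1 phase the pocket proteins hold E2F factors silent at the promoters of replication genes. Cyclin D and cyclin E kinases phosphorylate the pocket proteins, which frees the activator E2Fs and starts S phase, and the atypical E2Fs later turn the same promoters off. In resting cells RBL2 or RBL1 joins E2F4 and a core complex named MuvB to form the repressor DREAM. In proliferating cells MuvB exchanges these partners for MYBL2 and then FOXM1, which drive the genes of G2 phase and mitosis.

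Several of these regulators are textbook targets of the E2F factors themselves. The letters of their promoters are shown for 4 members, chosen after their levels under ginkgolic acid were seen to differ in direction. Low levels make the direction of E2F1 unsure, and RBL1 in both lines and MYBL2 in MCF10A cells lay within 2-fold. A link of the promoter letters to the levels was not tested. The windows are RefSeq sequences on GRCh38.p14 from 250 bases before to 50 bases after the start of the gene, 5′ to 3′ on the strand of the gene. Capitals mark the E2F words (TTTCCCGC, TTTCGCGC, TTTGCCGC and TTTGGCGC), the shorter E2F core GGCGGGA, and the cell cycle homology region, CHR, to which MuvB binds (TTTGAA and TTCGAA), all searched on both strands.
E2F1, chr20:33686336-33686635, minus strand: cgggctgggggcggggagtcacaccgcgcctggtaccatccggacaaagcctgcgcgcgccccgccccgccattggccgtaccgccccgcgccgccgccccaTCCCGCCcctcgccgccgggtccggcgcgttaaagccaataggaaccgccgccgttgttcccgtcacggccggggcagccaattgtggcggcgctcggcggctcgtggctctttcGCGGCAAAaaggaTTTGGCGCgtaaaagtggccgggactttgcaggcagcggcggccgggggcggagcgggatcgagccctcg
E2F3, chr6:20401629-20401928, plus strand: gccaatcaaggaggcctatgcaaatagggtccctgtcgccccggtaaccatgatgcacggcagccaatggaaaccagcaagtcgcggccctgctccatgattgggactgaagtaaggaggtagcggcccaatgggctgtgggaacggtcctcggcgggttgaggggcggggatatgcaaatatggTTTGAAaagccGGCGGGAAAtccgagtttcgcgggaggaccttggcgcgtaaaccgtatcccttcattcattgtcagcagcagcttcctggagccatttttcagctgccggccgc
RBL1, chr20:37095948-37096247, minus strand: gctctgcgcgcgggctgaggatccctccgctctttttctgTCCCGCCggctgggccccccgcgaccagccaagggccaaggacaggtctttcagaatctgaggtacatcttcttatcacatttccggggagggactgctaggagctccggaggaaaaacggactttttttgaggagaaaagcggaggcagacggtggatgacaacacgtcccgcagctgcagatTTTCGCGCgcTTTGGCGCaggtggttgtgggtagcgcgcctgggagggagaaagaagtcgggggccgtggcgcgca
MYBL2, chr20:43666864-43667163, plus strand: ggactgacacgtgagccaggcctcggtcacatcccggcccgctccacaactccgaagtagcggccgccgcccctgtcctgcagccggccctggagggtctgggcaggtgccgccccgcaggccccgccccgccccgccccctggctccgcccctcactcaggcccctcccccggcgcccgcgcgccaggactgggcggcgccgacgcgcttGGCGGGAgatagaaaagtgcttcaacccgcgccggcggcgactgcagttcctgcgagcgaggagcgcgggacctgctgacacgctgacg
With the first base of the gene as 1 and the base before it as −1, E2F1 held E2F words that began at −33 and −20 and a core at −148. RBL1 held E2F words at −26 and −16 and a core at −210. E2F3 held a CHR at −65 and an E2F word at −53 that overlaps a core at −54, and its other RefSeq window held cores at −133 and −38. MYBL2 held a core at −39. Of the other members with a window, E2F2 had an E2F word at −42 and E2F7 had none of these words. RBL2 had a CHR at 25 in its first window and none of these words in its other. As GENCODE 29 places the genes, the RefSeq starts lie 494 and 1642 bases inside RBL2 and 95 inside MYBL2. That of the other E2F3 window lies 1708 bases inside. E2F8 and FOXM1 had no entry, and the RB1 window was left out because it lies 172724 bases inside the gene as GENCODE 29 places it. E2F words were in 3.31% of all 35116 windows, the core in 15.4% and the CHR in 16.4%. The core GGCGGGA shares 6 letters with the complement of TTTCCCGC, so these matches can coincide.

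With ginkgolic acid, FOXM1 and E2F7 were at least 2-fold higher in both lines, E2F3 was at least 2-fold lower in both, and MYBL2 and RB1 passed the size rule, as higher, in the NOTCH1-labelled line alone. In the NOTCH1-labelled line 4 of 10 members were higher by 2-fold or more, 2 were lower by as much and 4 lay within 2-fold, where 16.6% and 23.2% of all 29067 genes above 0 in both groups were higher and lower by that much. In MCF10A cells 2 of 10 were higher, 2 lower and 6 within 2-fold, where 29.9% and 13.5% of 27702 genes were. The median log2 ratio of the 10 members was 0.47 in the NOTCH1-labelled line and −0.10 in MCF10A cells, against −0.09 and 0.27 over these genes. Over protein-coding genes alone, as all members are, the medians were 0.05 in both lines, and over genes that reached 5 FPKM they were 0.25 and −0.18, so the direction of the background depends on the genes taken. Of 14968 protein-coding genes in the NOTCH1-labelled line 16.1% were higher and 17.7% lower by 2-fold or more, and of 14733 in MCF10A cells 22.1% were higher and 13.9% lower. Of the members, 9 in the NOTCH1-labelled line and 8 in MCF10A cells reached 1 FPKM in either group, E2F1 in neither line. For genes at that minimum, 18.9% were higher by 2-fold or more and 18.9% lower in the NOTCH1-labelled line, and 24.3% and 15.2% in MCF10A cells. At 5 FPKM the shares were 19.6% higher and 9.44% lower of 9890 genes in the NOTCH1-labelled line, and 12.3% higher and 16.6% lower of 9437 in MCF10A cells. In MCF10A cells 2 members were higher at the 1 FPKM minimum, and 1 at 5 FPKM, where fewer members qualify. Both the count of members and the background share thus change with the minimum.

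**Figure D1:**
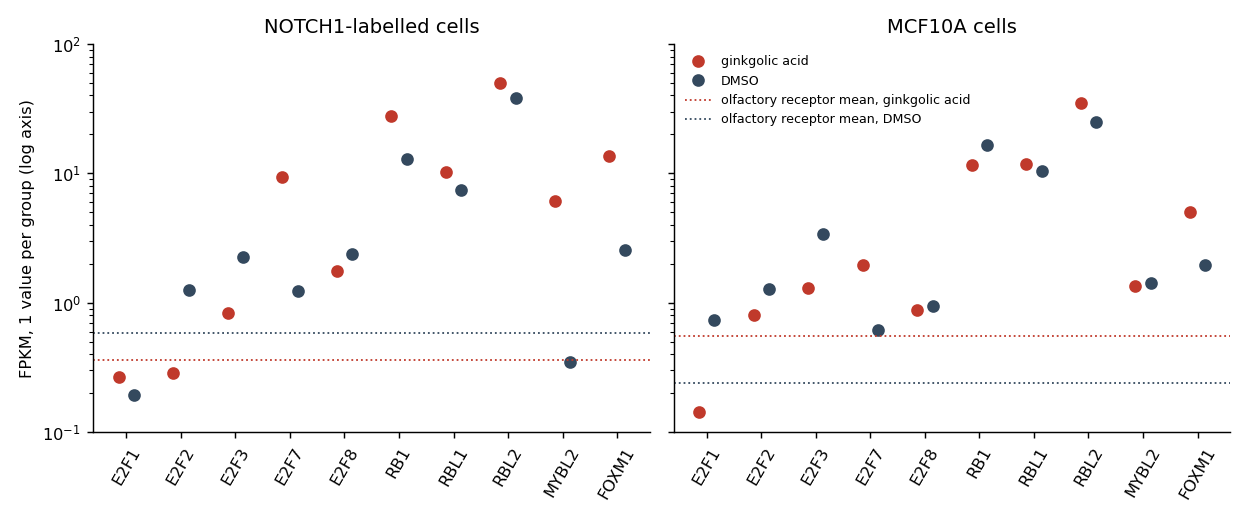
FPKM of the 10 regulators on a log axis, 1 point per group, with ginkgolic acid left of DMSO and the NOTCH1-labelled line left of MCF10A cells. Dotted lines are the mean FPKM of olfactory receptor genes in each group; E2F1 lies below its line in all but the MCF10A DMSO group, where it was at 0.733 FPKM.

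Among the activators, E2F3 had the highest level in each of the 4 groups, and it was lower under ginkgolic acid by nearly the same ratio in both lines. E2F3 (chromosome 6, 20402397 to 20493941 in the NOTCH1 table, hg19) was at 0.838 FPKM under ginkgolic acid and 2.26 under DMSO in the NOTCH1-labelled line, a log2 ratio of −1.43. In MCF10A cells it was at 1.30 FPKM under ginkgolic acid, against 3.43 under DMSO, a log2 ratio of −1.40. E2F2 was at 0.285 FPKM under ginkgolic acid and 1.26 under DMSO in the NOTCH1-labelled line, and at 0.803 under ginkgolic acid and 1.27 FPKM under DMSO in MCF10A cells. Its DMSO levels were thus nearly equal in both lines, and its level under ginkgolic acid was lower in both, at log2 ratios of −2.15 and −0.66.

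E2F1, the best known activator of S phase (chromosome 20, 32263488 to 32274210, hg19), was listed at 0.269 FPKM under ginkgolic acid and 0.196 under DMSO in the NOTCH1-labelled line, and at 0.143 FPKM under ginkgolic acid, against 0.733 under DMSO, in MCF10A cells. These levels are near those of genes that breast cells are not known to use. Olfactory receptor genes averaged 0.361 FPKM (ginkgolic acid) and 0.584 FPKM (DMSO) over 371 genes in the NOTCH1-labelled line, and 0.557 FPKM (ginkgolic acid) and 0.240 FPKM (DMSO) over 370 genes in MCF10A cells. E2F1 lay above that mean only in MCF10A cells under DMSO, so its log2 ratios, 0.46 in the NOTCH1-labelled line and −2.36 in MCF10A cells, rest on 4 values of which 3 lay below it. The olfactory mean itself was lower under ginkgolic acid in the NOTCH1-labelled line and higher in MCF10A cells. E2F2 under ginkgolic acid and MYBL2 under DMSO, both in the NOTCH1-labelled line, also lay below the olfactory mean. With 1 FPKM added to each value, the ratios of E2F2 and E2F3 were within 2-fold, at −0.82 and −0.83 in the NOTCH1-labelled line and −0.33 and −0.95 in MCF10A cells.

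The atypical repressors E2F7 and E2F8, which bind DNA without a DP partner, differed from each other. E2F7 (chromosome 12, 77415026 to 77459360 in the NOTCH1 table) was at 9.41 FPKM under ginkgolic acid and 1.24 under DMSO in the NOTCH1-labelled line, a log2 ratio of 2.93. In MCF10A cells it was at 1.98 under ginkgolic acid and 0.615 FPKM under DMSO, a log2 ratio of 1.68, or 0.88 with 1 FPKM added to each value. E2F8 was at 1.75 FPKM under ginkgolic acid, against 2.38 under DMSO, in the NOTCH1-labelled line and at 0.874 under ginkgolic acid and 0.952 FPKM under DMSO in MCF10A cells, within 2-fold in both. With ginkgolic acid in the NOTCH1-labelled line E2F7 was at the 62.2nd percentile of protein-coding genes by level, above all activators. The summed FPKM of E2F7 and E2F8 was 8.01 times that of E2F1, E2F2 and E2F3 under ginkgolic acid in the NOTCH1-labelled line, against 0.975 times under DMSO. In MCF10A cells it was 1.27 times under ginkgolic acid, against 0.288 times under DMSO. The 8.01 rests on activators at low levels in the NOTCH1-labelled line under ginkgolic acid. There E2F1 (0.269 FPKM) and E2F2 (0.285) lay below the olfactory mean of 0.361, and E2F3 (0.838) below the olfactory 95th percentile of 1.10. The higher sum of E2F7 and E2F8 came from E2F7, since E2F8 was lower.

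**Figure D2:**
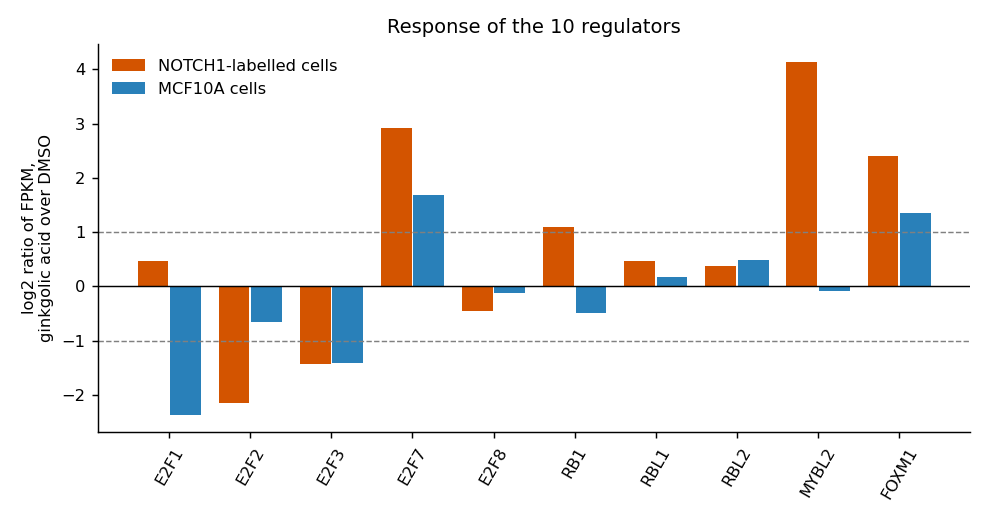
Log2 ratio of FPKM, ginkgolic acid over DMSO, for each regulator, with the NOTCH1-labelled line left of MCF10A cells; dashed lines mark 2-fold. MYBL2 has the tallest bar, 4.14 in the NOTCH1-labelled line, beside −0.08 in MCF10A cells, and E2F3 has nearly equal bars.

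The pocket protein genes were the most abundant members, except that FOXM1, at 13.5 FPKM, lay above RBL1 in the NOTCH1-labelled line under ginkgolic acid. RBL2, which encodes p130, the pocket protein of resting cells (chromosome 16, 53467888 to 53538323, hg19), was at 49.6 FPKM under ginkgolic acid and 38.03 under DMSO in the NOTCH1-labelled line, and at 35.04 FPKM under ginkgolic acid, against 24.9 under DMSO, in MCF10A cells. It was the highest member in each group. RBL1, which encodes p107, was at 10.3 under ginkgolic acid and 7.41 FPKM under DMSO in the NOTCH1-labelled line and at 11.7 FPKM under ginkgolic acid, against 10.4 under DMSO, in MCF10A cells. Both were above DMSO in both lines, by log2 ratios of 0.38 and 0.49 for RBL2 and 0.48 and 0.18 for RBL1, none of which reached 2-fold. Exons of AKTIP overlap those of RBL2 on the other strand, and antisense genes overlap exons of RBL1 and E2F8, so their reads may be shared.

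RB1, the retinoblastoma tumor suppressor (chromosome 13, 48877878 to 49056152 in the NOTCH1 table), had ratios of opposite sign. It was at 27.6 FPKM under ginkgolic acid and 12.9 under DMSO in the NOTCH1-labelled line, a log2 ratio of 1.10, and at 11.7 under ginkgolic acid and 16.4 FPKM under DMSO in MCF10A cells, a log2 ratio of −0.49. The higher value came just over 2-fold, and was 0.96 once the median ratio of all genes reaching 1 FPKM in each group was removed. LPAR6, a receptor gene nested in an intron of RB1 on the other strand, was at 11.0 FPKM under ginkgolic acid, against 21.4 under DMSO, in the NOTCH1-labelled line and at 10.7 under ginkgolic acid and 10.4 FPKM under DMSO in MCF10A cells, so it did not share the direction of RB1. RBL2 made up 56.7% of the summed pocket protein FPKM under ginkgolic acid and 65.2% under DMSO in the NOTCH1-labelled line, and 59.9% under ginkgolic acid and 48.2% under DMSO in MCF10A cells.

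FOXM1, the forkhead factor of the G2/M program, was higher under ginkgolic acid in both lines. It was at 13.5 FPKM under ginkgolic acid and 2.55 under DMSO in the NOTCH1-labelled line, a 5.31-fold difference, and at 5.03 FPKM under ginkgolic acid, against 1.96 under DMSO, in MCF10A cells, a 2.56-fold difference. The log2 ratios were 2.41 and 1.36, and 2.04 and 1.02 with 1 FPKM added to each value. The tables place FOXM1 in a chromosome 12 interval, 2904118 to 3050306 (hg19), that it shares with 9 other rows. ITFG2, whose exons overlap those of FOXM1 on the other strand, had 4.80 under ginkgolic acid and 12.9 FPKM under DMSO in the NOTCH1-labelled line and 9.39 FPKM under ginkgolic acid, against 12.0 under DMSO, in MCF10A cells, so it was lower where FOXM1 was higher.

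MYBL2 (chromosome 20, 42295753 to 42345136, hg19), which encodes B-MYB, the partner of MuvB in S and G2 phase, had the largest difference between the lines. It was at 6.10 FPKM under ginkgolic acid and 0.346 under DMSO in the NOTCH1-labelled line, a log2 ratio of 4.14, and at 1.34 under ginkgolic acid and 1.42 FPKM under DMSO in MCF10A cells, a log2 ratio of −0.08. The MCF10A levels were nearly equal and lay between those of the NOTCH1-labelled groups. Since the DMSO value in the NOTCH1-labelled line lay below the olfactory mean of 0.584, the size of the 17.6-fold difference rests on that low value, and with 1 FPKM added to each value the log2 ratio was 2.40. MYB, the progenitor and leukemia factor of the same family, and MYBL1, known from the testis, were higher under ginkgolic acid in both lines. MYB was at 8.01 FPKM under ginkgolic acid, against 2.96 under DMSO, in the NOTCH1-labelled line and at 5.54 under ginkgolic acid and 1.21 FPKM under DMSO in MCF10A cells, while MYBL1 was at 6.002 FPKM under ginkgolic acid and 2.103 under DMSO in the NOTCH1-labelled line, and at 5.65 under ginkgolic acid and 1.78 FPKM under DMSO in MCF10A cells. Of the summed FPKM of the 3 MYB genes, MYBL2 held 30.3% under ginkgolic acid and 6.40% under DMSO in the NOTCH1-labelled line, and 10.7% under ginkgolic acid and 32.2% under DMSO in MCF10A cells.

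**Figure D3:**
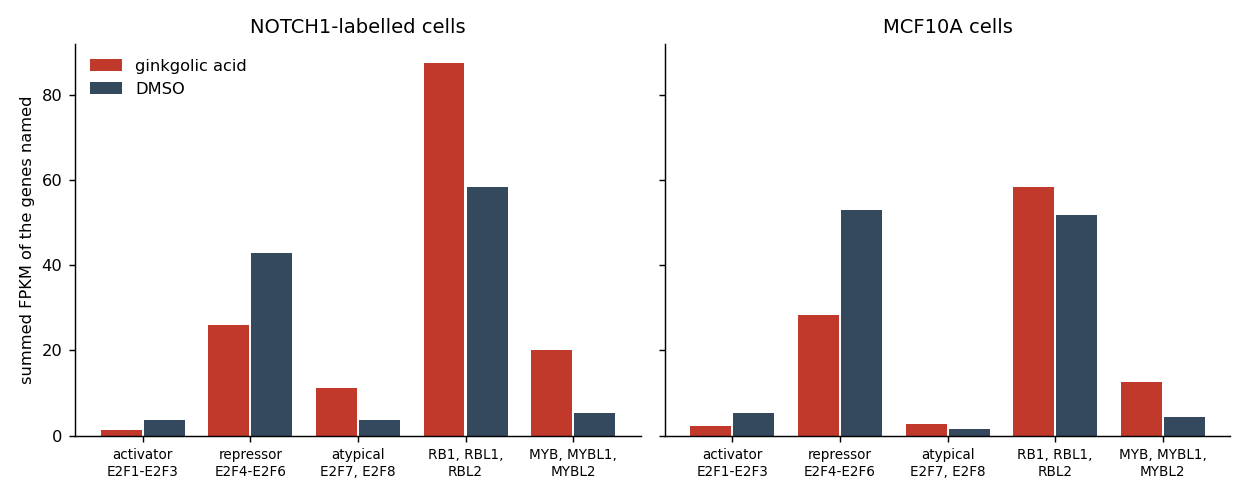
Summed FPKM by role, with ginkgolic acid left of DMSO and the NOTCH1-labelled line left of MCF10A cells. The activator sum is 1.39 under ginkgolic acid and 3.72 under DMSO in the NOTCH1-labelled line, and 2.24 under ginkgolic acid and 5.43 under DMSO in MCF10A cells.

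Set side by side, 7 of the 10 members had ratios of the same sign in both lines, and the other 3, E2F1, RB1 and MYBL2, had opposite signs. The sign of MYBL2 in MCF10A cells rests on a ratio of −0.08, which was 0.02 once the median gene was removed. The signs of E2F1 rest on levels mostly below the olfactory mean. The share of all genes with the same sign in both lines was not computed, so 7 of 10 has no background beside it. The log2 ratio was higher by at least 1 in NOTCH1-labelled than in MCF10A cells for 5 members, with differences of 4.22 for MYBL2, 2.82 for E2F1, 1.59 for RB1, 1.24 for E2F7 and 1.05 for FOXM1. It was lower by at least 1 for E2F2, at −1.49. With the median gene of each table removed, E2F7 at 0.996 and FOXM1 at 0.81 were under 1, and with 1 FPKM added to each value E2F1 at 0.69 and E2F2 at −0.48 were. Over the 24586 genes above 0 in all groups, 18.3% were higher and 34.6% lower by that much, with a median difference of −0.17. Over the 15523 genes that reached 1 FPKM in both tables, shares of 21.5% were higher and 22.4% lower, with a median of 0.22, so the lean of the background turns with the minimum. RBL2, RBL1, E2F8 and E2F3 differed by −0.11, 0.30, −0.32 and −0.02. The differences have no replicate error and were not tested.

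In DMSO alone, across tables that were normalized separately, E2F1 and MYBL2 were lower in NOTCH1-labelled than in MCF10A cells, with log2 ratios of −1.91 and −2.04. E2F8 and E2F7 were higher in the NOTCH1-labelled line, at 1.32 and 1.01, and the other 6 members were within 2-fold. The olfactory mean under DMSO was also higher in that line, at 0.584 FPKM against 0.240 in MCF10A cells. E2F7, at 1.24 and 0.615 FPKM, lay under the olfactory 95th percentiles of 1.54 and 0.893. E2F1 and MYBL2, at 0.196 and 0.346 FPKM in the NOTCH1-labelled line, lay below its olfactory mean. The share of all genes that differed between the lines by 2-fold, under DMSO or ginkgolic acid, was not computed. With ginkgolic acid, E2F7 at 2.25, MYBL2 at 2.19, FOXM1 at 1.43, RB1 at 1.24 and E2F8 at 1.00 were higher in the NOTCH1-labelled line by 2-fold or more, and E2F2 at −1.49 was lower. E2F7, FOXM1 and MYBL2 thus had their highest level of the 4 groups in the NOTCH1-labelled line under ginkgolic acid, as did RB1 and RBL2.

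The other E2F family genes and their DP partners were mostly at higher levels than the activators. E2F4, which pairs with RBL1 or RBL2 in DREAM, was at 11.2 FPKM under ginkgolic acid, against 27.2 under DMSO, in the NOTCH1-labelled line and at 10.2 under ginkgolic acid and 37.0 FPKM under DMSO in MCF10A cells. It made up 28.96% of the summed FPKM of E2F1 to E2F8 under ginkgolic acid and 54.2% under DMSO in the NOTCH1-labelled line, and 30.5% under ginkgolic acid and 61.7% under DMSO in MCF10A cells. Of the list of 5 (E2F4, E2F5, E2F6, TFDP1 and TFDP2), E2F4 alone was lower by 2-fold or more in the NOTCH1-labelled line, and E2F4 and TFDP1 were in MCF10A cells, with none at least 2-fold higher in either line. Beside this and the next list, 18.9% of all genes with at least 1 FPKM were higher and 18.9% lower in the NOTCH1-labelled line. The shares in MCF10A cells were 24.3% and 15.2%. TFDP1, the main DP partner, had a log2 ratio of −1.39 in MCF10A cells, at 12.8 FPKM under ginkgolic acid, against 33.5 under DMSO. The repressor E2F6 had a log2 ratio of −0.77 in the NOTCH1-labelled line. E2F5 and the partner gene TFDP2 had 0.36 and 0.73 in the NOTCH1-labelled line and 0.76 and 0.67 in MCF10A cells.

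Of 6 genes of the MuvB core and of DREAM assembly, LIN54 and LIN9 were higher by 2-fold or more in the NOTCH1-labelled line and LIN54 was in MCF10A cells, with none lower by as much. LIN54, the subunit that binds the CHR, was at 12.4 FPKM under ginkgolic acid and 3.92 under DMSO in the NOTCH1-labelled line, and at 7.22 under ginkgolic acid and 3.18 FPKM under DMSO in MCF10A cells. LIN9, which contacts MYBL2, was at 20.1 FPKM under ginkgolic acid, against 7.53 under DMSO, in the NOTCH1-labelled line, and at 10.4 under ginkgolic acid and 6.96 FPKM under DMSO in MCF10A cells. LIN52 and RBBP4 were the lowest of the list in both lines, with log2 ratios of −0.33 and −0.22 in the NOTCH1-labelled line and −0.44 and −0.64 in MCF10A cells. The list medians were 0.69 and −0.23, against 0.06 and 0.07 over all genes with at least 1 FPKM in either group. For list genes that reached 5 FPKM they were 1.12 and 0.18, so the direction in MCF10A cells turned.

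Upstream of the pocket proteins, 10 cyclins, kinases and the phosphatase CDC25A had list medians of −0.11 in the NOTCH1-labelled line and −1.06 in MCF10A cells. In the NOTCH1-labelled line 2 were higher by 2-fold or more and 0 lower, and in MCF10A cells 1 was higher and 6 lower. The count of 6 was 4 with 1 FPKM added to each value, and 4 once the median gene was removed. The direction in the NOTCH1-labelled line turned to 0.27 for list genes that reached 5 FPKM and to 0.56 as a mean. Shares of all genes higher and lower by 2-fold or more were 18.9% and 18.9% in that line and 24.3% and 15.2% in MCF10A cells. CCNA2, cyclin A of S and G2 phase, was at 68.4 FPKM under ginkgolic acid, against 1.98 under DMSO, in the NOTCH1-labelled line and at 25.0 under ginkgolic acid and 5.73 FPKM under DMSO in MCF10A cells. CDK2, its kinase, was at 27.6 FPKM under ginkgolic acid, against 4.66 under DMSO, in the NOTCH1-labelled line and at 13.9 under ginkgolic acid and 13.5 FPKM under DMSO in MCF10A cells. CCND1, the G1 cyclin that activates CDK4 and CDK6, was at 6.86 FPKM under ginkgolic acid, against 11.4 under DMSO, in the NOTCH1-labelled line, and at 3.55 under ginkgolic acid and 13.1 FPKM under DMSO in MCF10A cells. Of the E cyclins, CCNE1 had the lowest ratio of the list in the NOTCH1-labelled line, −0.87, where CCNE2 had 0.56, and CCNE2 had the second lowest in MCF10A cells, −1.85.

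Of 7 CDK inhibitor genes, CDKN2A and CDKN2B were listed at 0 in all 4 groups. MCF10A cells are known to have lost both genes. Of the other 5 genes, 3 were at least 2-fold higher in each line, and CDKN1C was lower in MCF10A cells, at 5.91 FPKM under ginkgolic acid and 28.6 under DMSO. In the NOTCH1-labelled line CDKN1C was at 25.2 FPKM under ginkgolic acid and 15.5 under DMSO. By 2-fold or more, 18.9% of all genes were higher in that line and 24.3% in MCF10A cells, and 18.9% and 15.2% were lower. CDKN1A and CDKN1B, the inhibitors p21 and p27 of cyclin E and cyclin A kinases, had log2 ratios of 3.53 and 2.04 in the NOTCH1-labelled line. In MCF10A cells they had 1.16 and 0.81. CDKN2C and CDKN2D, inhibitors of CDK4 and CDK6, had 1.17 and 1.76 in MCF10A cells, and 1.11 and 0.49 in the NOTCH1-labelled line.

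**Figure D4:**
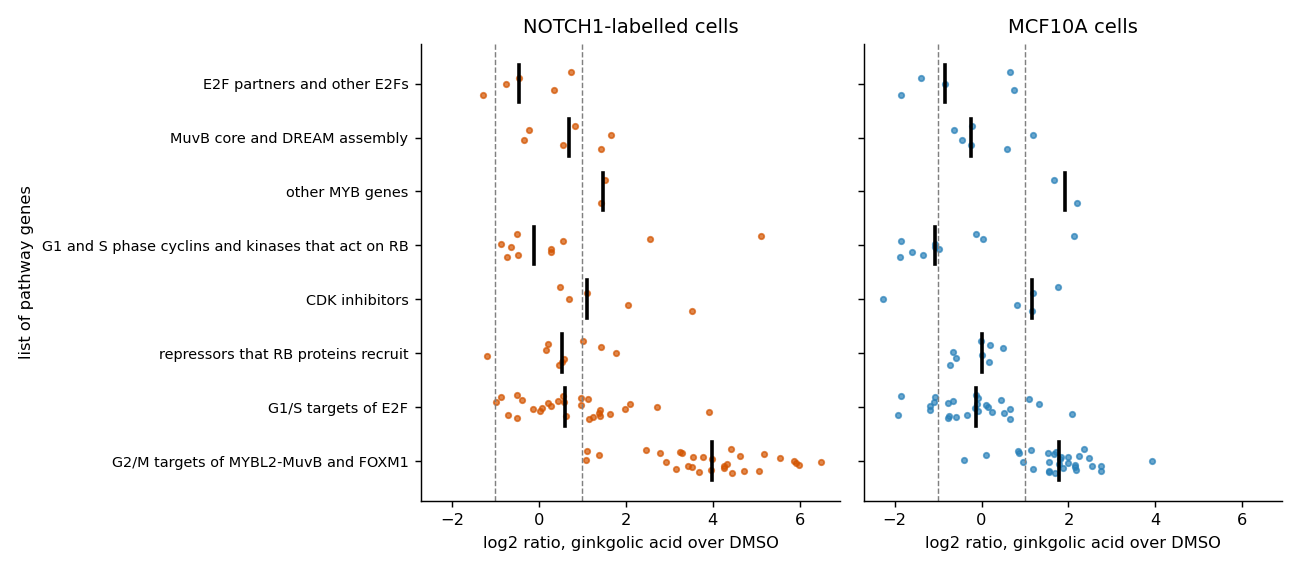
Log2 ratio, ginkgolic acid over DMSO, of each gene with at least 1 FPKM in either group, by list, with the NOTCH1-labelled line left of MCF10A cells; vertical bars are list medians and dashed lines mark 2-fold. The 30 G2/M targets have a median of 3.98 in NOTCH1-labelled and 1.79 in MCF10A cells, and the G1/S targets 0.59 and −0.12.

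The textbook targets of these regulators were listed by phase, 31 of G1/S and 32 of G2/M. MCM5, RRM2, CHAF1B, CENPA and BUB1B share joined rows with other genes and were not counted. Among all genes with at least 1 FPKM in either group, 18.9% were at least 2-fold higher and 18.9% lower in the NOTCH1-labelled line. The shares in MCF10A cells were 24.3% higher and 15.2% lower. G1/S genes that E2F factors drive had a list median of 0.59 in the NOTCH1-labelled line, where 11 of 28 were higher by 2-fold or more and 0 lower, and of −0.12 in MCF10A cells, where 3 of 27 were higher and 6 lower. CDC45, a subunit of the replicative helicase, and TK1, thymidine kinase, led in the NOTCH1-labelled line at 3.91 and 2.71. Under DMSO there, CDC45 was at 1.38 FPKM, below the olfactory 95th percentile of 1.54. TK1 was at 0.581 FPKM, just below the olfactory mean of 0.584, so the sizes of both ratios rest on low values. UNG and CCNE1 were lowest in that line at −0.995 and −0.87. In MCF10A cells CDC6, which licenses origins, and RFC4, a clamp loader subunit, led at 2.08 and 1.31, and MCM10 and CCNE2 were lowest at −1.93 and −1.85. G2/M genes that MuvB with MYBL2 and FOXM1 drives were higher by 2-fold or more for 30 of 30 in the NOTCH1-labelled line and for 25 of 30 in MCF10A cells, and 0 were lower in either. KIF20A, a kinesin of cytokinesis, and TOP2A, topoisomerase II, had the highest ratios of this list in the NOTCH1-labelled line, 6.49 and 5.98. Under DMSO in that line KIF20A was at 1.21 FPKM, also below the olfactory 95th percentile, and TOP2A was at 4.95. In MCF10A cells NEK2, a centrosome kinase, and BUB1, a checkpoint kinase, did, at 3.92 and 2.76. CDC25B, a phosphatase that activates CDK1, was the lowest in both, at 1.07 and −0.40, followed by GTSE1 at 1.10 in the NOTCH1-labelled line and CCNF at 0.11 in MCF10A cells.

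**Figure D5:**
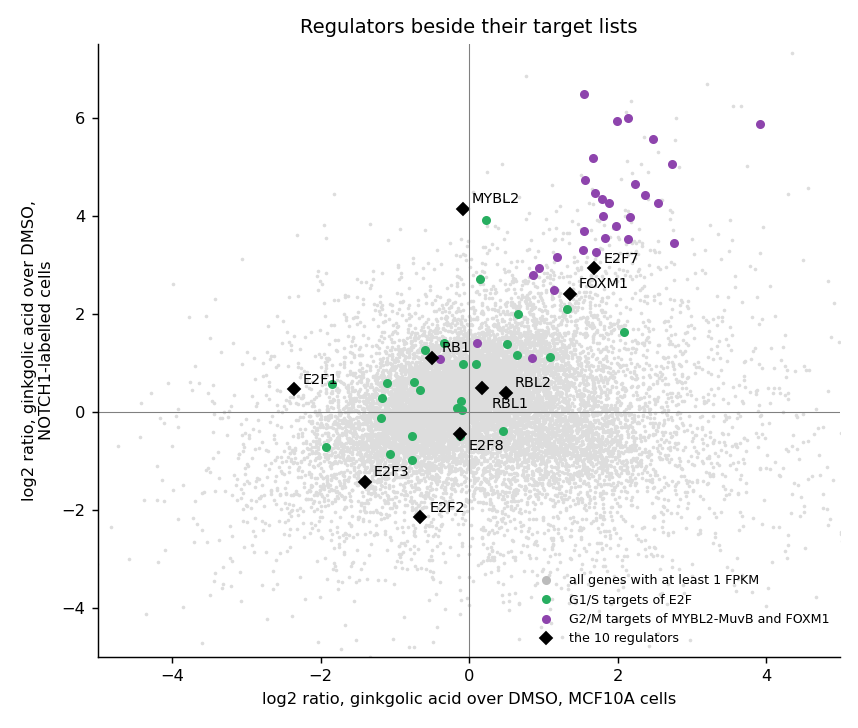
Log2 ratio, ginkgolic acid over DMSO, in the NOTCH1-labelled line (vertical) and MCF10A cells (horizontal), for 15523 genes that reached 1 FPKM in both tables (grey; 81 lie outside the axes), for G1/S and G2/M targets, and for the regulators, all 10 of which are drawn. FOXM1 (2.41 vertical, 1.36 horizontal) and E2F7 (2.93 and 1.68) lie within the range of the G2/M genes. Both lie below the G2/M medians of 3.98 and 1.79. MYBL2 lies beside CDC45, the highest G1/S point. The height of MYBL2 rests on a DMSO value below the olfactory mean.

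Among 8730 genes that reached 5 FPKM in each table, the genes nearest to a member were found by the distance between their pairs of log2 ratios. Only 2 ratios define this likeness, so it is a coarse one. MAD2L1, of the spindle checkpoint, PIF1, a DNA helicase, and JMJD6 lay nearest to FOXM1, at distances of 0.11 to 0.13. CDC45 lay nearest to MYBL2 at 0.39, followed by the replication-dependent histone genes HIST1H3G and HIST1H2BO at 0.58 and 0.62. The MYBL2 ratio of 4.14 in the NOTCH1-labelled line rests on 0.346 FPKM under DMSO, below the olfactory mean. It was 2.40 with 1 FPKM added to each value. KRT10, KIAA0895L and SFN lay nearest to E2F1. Since 3 of the 4 E2F1 values lay below the olfactory mean, these distances rank genes against background values. KRT10 was at 9.27 FPKM under ginkgolic acid, against 7.53 under DMSO, in the NOTCH1-labelled line and 6.79 under ginkgolic acid and 35.03 FPKM under DMSO in MCF10A cells. MAPK8, RP11-315J22.5 and KITLG lay nearest to RBL2, at 0.01 to 0.02.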

How the data were processed

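RNA of 8 samples was sequenced, 2 for each of 4 groups; per the labels' protocols, an RNeasy kit gave total RNA and a ScriptSeq Complete Gold kit gave the libraries. The authors deposited 2 tables, 1 per line, whose values are FPKM per gene and group, per the file headers. Cuffdiff 2.1.1, Cufflinks 2.1.1, Bowtie2 2.1.0, TopHat2 2.0.8b and the build hg19 are named, per the submitters' processing notes. How a group's samples became 1 value, the annotation and the strand setting are not given in the sources. Without strand, reads of genes that overlap on opposite strands cannot be told apart.

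Rows with no gene name (5455 in the NOTCH1 and 15977 in the MCF10A table), rows that join genes (1570 and 1575), rows outside the main chromosomes, repeated symbols and genes under 200 exonic bases in GENCODE 29 were left out. Positions are the intervals in the tables. Log2 ratios (ginkgolic acid over DMSO) had no pseudocount, and list counts use genes with at least 1 FPKM in either group. The planned limma test was for values per sample, which the tables used here do not hold. The ratio and count functions were tested on simulated data. The members and lists were chosen with earlier results of these data known. Genes named are the members, the 2 highest and 2 lowest of each list per line, the 3 nearest to FOXM1, MYBL2, E2F1 and RBL2, and further genes chosen after their values were seen (NOTCH1, DCN, ITFG2, LPAR6, AKTIP, E2F3-IT1). The core GGCGGGA was also added after the other motifs had been searched. Settings tried were a pseudocount, centring, other minima and folds, means, and joined rows. Python 3.11.15, numpy 2.4.6, pandas 2.3.3 and matplotlib 3.10.9 were used.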

Additional observations from a re-analysis of the deposited data

Results flagged for a closer look

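Of the members, 3 had ratios on opposite sides of 0 in the lines, with at least 2-fold in one of them. The log2 ratio in the NOTCH1-labelled line minus that in MCF10A cells was 4.22 for MYBL2, 2.82 for E2F1 and 1.59 for RB1. These differences were not tested, since the tables hold 1 value per group. With 1 FPKM added to each value they were 2.45 for MYBL2, 0.69 for E2F1 and 1.502 for RB1, and with the median gene of each table removed they were 3.98, 2.58 and 1.34.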

How the results depend on the processing

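No paired analysis was possible because the tables hold 1 value per group, and for the same reason no replicate could be left out. Members higher by 2-fold or more in the NOTCH1-labelled line numbered 4, and 3 to 4 under every setting. Members at least 2-fold lower there numbered 2, and 0 with a pseudocount of 1 FPKM, 0 at a minimum of 5 FPKM and 1 at 3-fold. In MCF10A cells 2 members of those with at least 1 FPKM were higher, and 1 with the pseudocount, at 5 FPKM or at 3-fold. There, 1 such member was lower, and 0 with the pseudocount, at 5 FPKM or at 3-fold, and 2 at 1.5-fold (with E2F2) or with no minimum (with E2F1). All genes higher and lower numbered 3699 and 3697 in the NOTCH1-labelled line, 1934 and 934 at 5 FPKM, and 2068 and 1557 for protein-coding genes alone, a setting added after seeing the data; with no minimum 6758 were lower. In MCF10A cells they numbered 4299 and 2693, 1164 and 1570 at 5 FPKM, and 1801 and 1728 for protein-coding genes, and with no minimum 8275 were higher. As shares, with no minimum, at 1 FPKM and at 5 FPKM, higher calls in the NOTCH1-labelled line were 16.6%, 18.9% and 19.6%. Lower calls there were 23.2%, 18.9% and 9.44%. In MCF10A cells higher calls were 29.9%, 24.3% and 12.3%, and lower calls 13.5%, 15.2% and 16.6%. The share that moved most with the minimum was thus the lower one in the NOTCH1-labelled line and the higher one in MCF10A cells. Of 40 alternative values for single members 34 stayed on their side of 2-fold, and of 20 for differences between lines 16 did; the sign of MYBL2 in MCF10A cells turned to 0.02 with centring. With centring, the differences of FOXM1 and E2F7 between lines were 0.81 and 0.996, both under 1. Of 96 alternative list medians 88 stayed on their side; those of the G1 cyclins and kinases in MCF10A cells were −0.96 with the pseudocount and −0.77 as a mean, and that of the CDK inhibitors there 0.53 as a mean. The sign turned for the G1 cyclins and kinases in the NOTCH1-labelled line (0.27 at 5 FPKM, 0.56 as a mean), the MuvB list in MCF10A cells (0.18 at 5 FPKM, 0.04 as a mean) and the repressors that RB recruits in MCF10A cells (−0.14 as a mean, against 0.00). The MuvB median in the NOTCH1-labelled line was 1.12 at 5 FPKM. Counting joined rows changed no count of members; for the lists it was added after seeing the data. Members near 1 FPKM (E2F1, E2F2, E2F3, E2F8, and MYBL2 and E2F7 in some groups) are those limited by the unknown depth.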

Other observations

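Of 9 genes for chromatin repressors that RB family proteins recruit, 3 were at least 2-fold higher and 1 lower under ginkgolic acid in the NOTCH1-labelled line, and of the 8 measured in MCF10A cells 0 were beyond 2-fold. The shares of all genes higher and lower were 18.9% and 18.9% in the NOTCH1-labelled line, and 24.3% and 15.2% in MCF10A cells. DNMT1, the maintenance DNA methyltransferase, was at 9.02 FPKM under ginkgolic acid, against 2.66 under DMSO, in the NOTCH1-labelled line, and SMARCA4, a chromatin remodeler, at 22.5 under ginkgolic acid and 8.38 FPKM under DMSO. SUV39H2, a histone H3 lysine methyltransferase, was at 2.97 FPKM under ginkgolic acid, against 6.85 under DMSO, there. In MCF10A cells HDAC1 and KDM5A had the lowest ratios, −0.73 and −0.66, and SMARCA4 and SMARCA2 the highest, 0.49 and 0.19. E2F3-IT1, an intronic transcript within E2F3 on the same strand, was at 1.35 FPKM under ginkgolic acid and 0.643 under DMSO in the NOTCH1-labelled line. In MCF10A cells it was at 0.997 FPKM under ginkgolic acid and was listed at 0 under DMSO, while E2F3 was lower under ginkgolic acid in both lines.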
